A study of Mus musculus with 6 samples.

Results

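The cyclin D genes Ccnd1, Ccnd2 and Ccnd3, the kinase genes Cdk4 and Cdk6, and the CDK inhibitor genes Cdkn1b, Cdkn1c, Cdkn2c and Cdkn2d were followed in mouse bone marrow progenitors with and without active Notch2. They are 9 genes of the 18193 named by a probe set of the array, chosen by symbol. A probe set is a group of short probes that together read 1 transcript region, and these genes have 24 of the 45037 non-control probe sets. Cells were sorted as Lin- cKit+ Sca1-, a gate the labels call myeloerythroid progenitors. Tested mice (ICN2 positive, 3 arrays) carried Rosa-lsl-ICN2 and Mx1-cre+. The lsl element blocks the Rosa26 transgene until Cre excises it, and the transgene then makes the intracellular domain of Notch2, which signals without a ligand. Their littermates (ICN2 negative, 3 arrays) carried Mx1-cre+ alone. Both groups, at 6 weeks of age, were given polyIC 3 times, every other day, at 20 mcg per g of body weight, and the interferon that polyIC induces drives Mx1-cre. Cells were taken 1 week after the last injection. Mx1-cre acts in many blood and stromal cells, so the transgene is not restricted to the sorted progenitors. All ICN2-positive samples were from males and all ICN2-negative samples from females, so an effect of sex and one of the transgene cannot be told apart. The labels do not say whether replicates were separate animals, so each p-value is set against the spread of these 3 and 3 samples alone, part or all of which may be technical.

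D-type cyclins are made in response to growth signals and activate CDK4 and CDK6. The active kinases phosphorylate the retinoblastoma protein, which releases E2F factors and lets a cell pass from G1 into S phase. INK4 inhibitors such as Cdkn2c and Cdkn2d bind CDK4 and CDK6 directly, while Cip/Kip inhibitors such as Cdkn1b and Cdkn1c bind complexes of cyclins and CDKs. In blood formation the D cyclins overlap in function, and Ccnd3 has been tied to expansion of erythroid and lymphoid precursors and of granulocytes in mice. Ccnd1 and Ccnd3 have been described as Notch-responsive in other cell types.

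Values are log2 of the deposited RMA intensities. Differences are ICN2 positive minus ICN2 negative on that scale, with the standard error of the limma fit (n = 3 per group). Adjusted p-values are Benjamini-Hochberg values over the 27424 probe sets tested, which had to exceed the 40th percentile of the array in 3 or more of the 6 arrays. A call needs an adjusted p under 0.05. All arrays had nearly the same median (6.05 to 6.09). ICN2-positive replicate 1 stood apart, with a correlation of 0.984 to replicate 2 and 0.988 to replicate 3 of its group, while those replicates correlated at 0.9945 with each other, like the ICN2-negative arrays (0.994 to 0.995). The dimmer Notch2 probe set (1451889_at) averaged 7.39 in ICN2-positive and 6.54 in ICN2-negative cells (adjusted p = 0.0158 in limma), and the brighter (1455556_at) averaged 13.01 and 12.94 (adjusted p = 0.571). Whether either reads the transgene is not known here. Markers of the gate were bright on all arrays, with Kit between 10.15 and 10.86 and Gata1 between 12.09 and 12.27. Mpo read 11.71, 13.69 and 13.63 in ICN2-positive replicates 1, 2 and 3, against 14.0 to 14.08 in ICN2-negative cells. Cd34 read 9.50, 11.99 and 11.60, against 12.31 to 12.44. Neither passed (adjusted p = 0.309 and 0.266 in limma). Kit, Gata1, Gata2, Klf1 and Car1 differed by 0.12, 0.08, 0.24, 0.16 and 0.13. The linear intensities of these 7 genes summed to 36404 to 49474 on ICN2-positive arrays, against 50424 to 52713 on ICN2-negative arrays. Ly6a, the gene for Sca1, was not analysed here.

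Of the 9 genes, 8 were tested with 23 probe sets, and each of these lay above the 40th percentile on all 6 arrays, so none entered through a single group. A single probe set passed the test: the brightest of Ccnd3, which fell in ICN2-positive cells. That is 1 of 23 (4.35%), against 2.65% of all probe sets tested (1.67% higher and 0.988% lower in ICN2-positive cells), so the share of calls among these genes was near the background. With the brightest probe set for each gene it was 1 of 8, against 4.36% of all genes tested. At an adjusted p under 0.10 it was 8 of 23, against 8.66% of all probe sets, and 6 of these 8 read Ccnd2. In 13 of the 23 (56.5%) the groups did not overlap, against 33.7% of all probe sets tested. Of the 13, 11 were higher in ICN2-positive cells (19.7% of all probe sets) and 2 lower (14% of all probe sets), and 7 of the 11 read the same gene, Ccnd2. The median difference was 0.12, against 0.03 over all probe sets tested. Without ICN2-positive replicate 1 none of the 23 passed in limma, against 3.14% of all probe sets, and in the fit with all arrays 9 of the 23 had an unadjusted p under 0.05, against 24.3% of all probe sets.

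**Figure D1:**
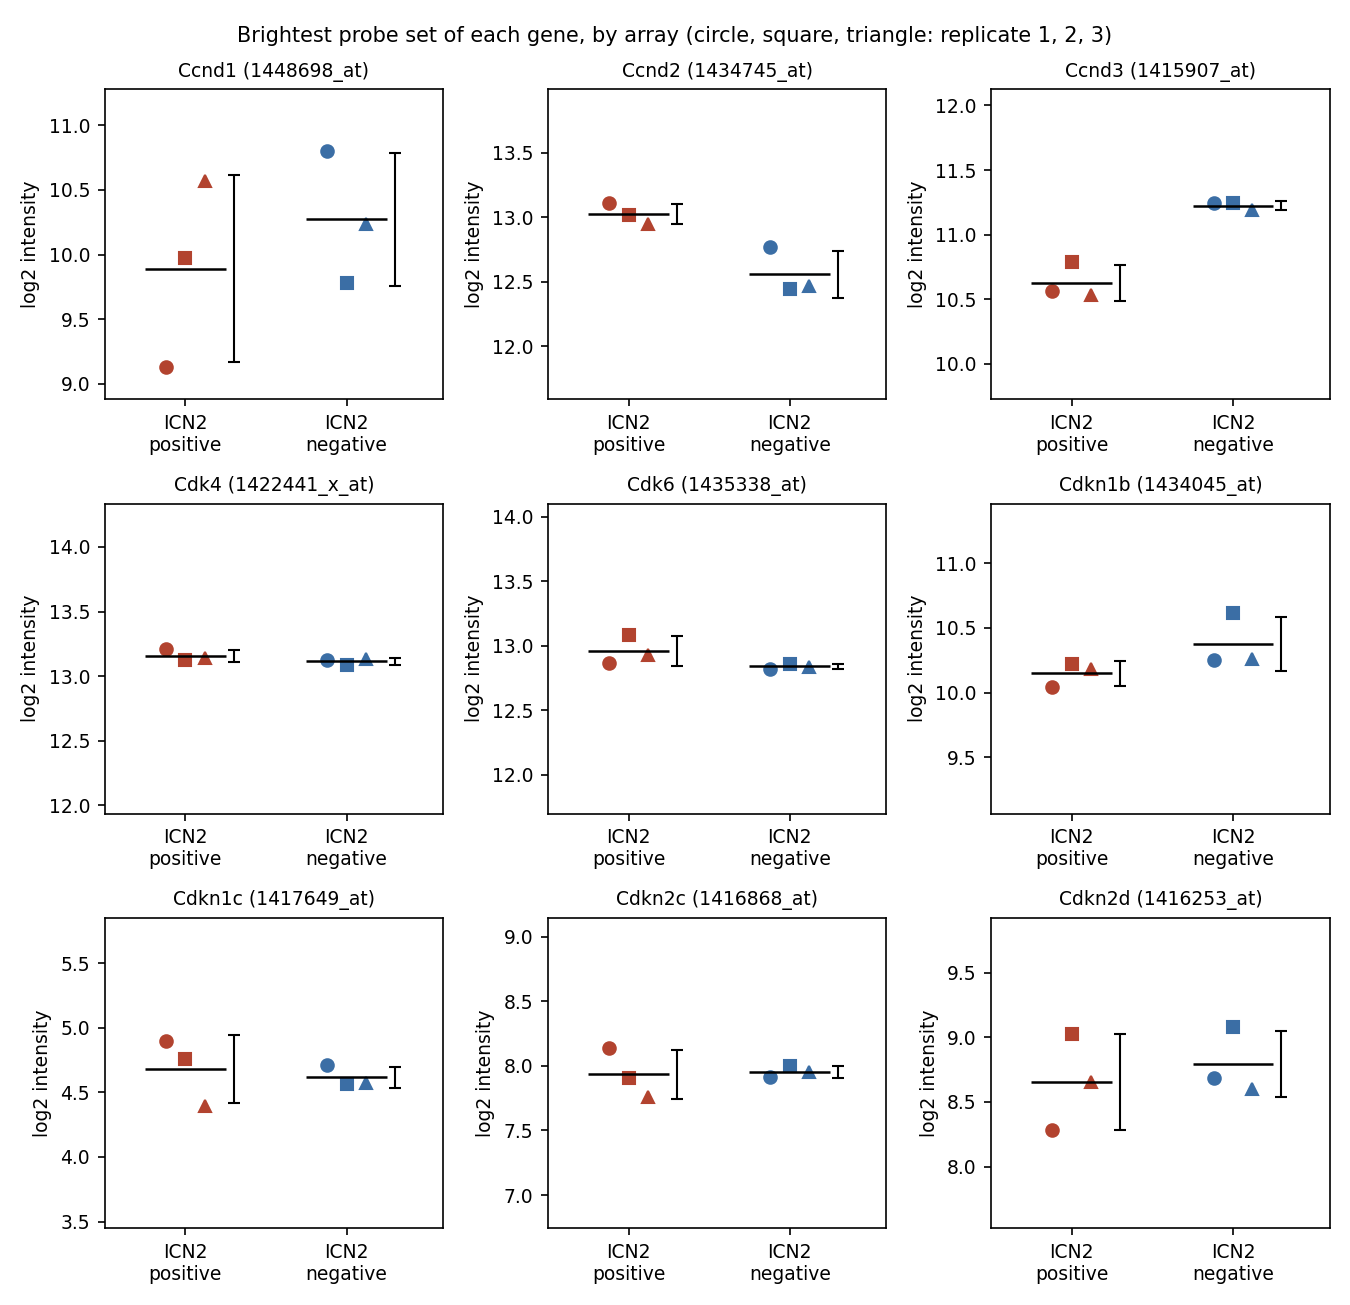
Log2 intensity (vertical axes, each spanning the same number of log2 units) of the brightest probe set of each of the 9 genes on the ICN2-positive arrays (left) and ICN2-negative arrays (right), where points are arrays, long bars are means and error bars are SD (n = 3). The groups are apart for Ccnd2 (higher in ICN2-positive cells) and Ccnd3 (lower), Cdk4 is nearly level at 13.09 to 13.21, and Ccnd1 is spread from 9.13 to 10.80.

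Ccnd3 had 3 probe sets, whose differences did not share a sign, and 1 of them passed the test. The brightest, 1415907_at, read 10.57, 10.79 and 10.53 in ICN2-positive replicates 1, 2 and 3, against 11.24, 11.25 and 11.19 in the ICN2-negative replicates. Every ICN2-positive array lay below every ICN2-negative array, with a gap of 0.40 between the nearest pair, and the ICN2-negative arrays were within 0.06 of each other. The difference was -0.60 ± 0.09 (1.51-fold lower, adjusted p = 0.0401 in limma). The second, 1438805_at, read 7.36, 8.0 and 7.77 in ICN2-positive cells, against 6.66, 6.91 and 6.20 in ICN2-negative cells. Here every ICN2-positive array was above every ICN2-negative one, but the difference of 1.12 ± 0.24 did not pass (adjusted p = 0.0767 in limma). The third, 1444323_at, was near the filter's limit at 5.55 to 5.71 in ICN2-positive and 5.67 to 5.98 in ICN2-negative cells, and its groups overlapped (-0.22 ± 0.11, adjusted p = 0.277 in limma). Within arrays, 1438805_at minus 1415907_at was 1.72 higher in ICN2-positive cells, with no overlap of the groups (exact two-sided permutation test, p = 0.1, the smallest that 3 against 3 arrays allow). This pair was chosen after the values were seen. Each of its probe sets already separated the groups, in opposite directions, so no other p was possible and the test adds no support. The Ccnd3 call was kept on leaving out ICN2-positive replicate 2 (adjusted p = 0.0421) and was lost on leaving out ICN2-positive replicate 1 or 3 or any ICN2-negative array (adjusted p = 0.0632 to 0.153), with differences of -0.68 to -0.55 throughout. As the mean of its 3 probe sets, Ccnd3 differed by 0.10 ± 0.12 (adjusted p = 0.621 in limma).

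The promoter table from RefSeq (GRCm38.p6) gives 2 start sites for Ccnd3 on the plus strand, 88416 bases apart. They are shown because the differences of this gene's probe sets had opposite signs, and the transcript that each probe set reads was not determined here. These are the 100 bases before each start.
Ccnd3, upstream start, chr17:47504951-47505050: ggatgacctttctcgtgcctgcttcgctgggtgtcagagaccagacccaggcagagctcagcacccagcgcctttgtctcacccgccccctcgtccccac
Ccnd3, downstream start, chr17:47593367-47593466: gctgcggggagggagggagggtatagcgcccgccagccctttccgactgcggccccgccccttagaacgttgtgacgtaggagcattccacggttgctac
None of the searched motifs lies in the 250 bases before either start, so no letters are in capitals. The motifs were searched on both strands in the 250 bases before each of 32817 starts. They were the core of RBPJ, the DNA-binding partner of Notch (TGGGAA, in 21.6% of windows), its longer form (CGTGGGAA, which contains the core, in 0.637%), E2F sites (TTTCCCGC, TTTCGCGC, TTTGCCGC or TTTGGCGC, in 1.86%) and the E-box bound by Myc proteins (CACGTG, in 6.02%). A missing match says only that these letters are not in the window.

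Ccnd2 was higher on every ICN2-positive array in all 7 of its probe sets, with differences of 0.41 to 0.79 and a median of 0.66, and none passed the test (adjusted p = 0.0652 to 0.101 in limma). All 7 had an unadjusted p under 0.05. The brightest, 1434745_at, read 13.11, 13.02 and 12.95 in ICN2-positive replicates 1, 2 and 3, against 12.77, 12.44 and 12.47 in ICN2-negative replicates. Its difference was 0.47 ± 0.11 (1.38-fold, 95% interval 0.19 to 0.75). The probe set with the largest difference, 1416122_at, read 11.85, 11.81 and 11.65 in ICN2-positive cells, against 11.30, 10.82 and 10.82 in ICN2-negative cells. That is 0.79 ± 0.16 (1.73-fold, adjusted p = 0.0652 in limma). The smallest difference, at 1416124_at, came from 10.50, 10.23 and 10.34 in ICN2-positive cells, against 10.07, 9.95 and 9.84 in ICN2-negative cells. In all 7, ICN2-negative replicate 1 was the highest of its group and closest to the ICN2-positive arrays. The probe sets tracked each other over the 6 arrays (r = 0.910 to 0.999 over 21 pairs, as a description, since they read the same RNA). They are repeated readings of 1 gene and do not count as 7 results. Within arrays, Ccnd2 1434745_at minus Ccnd3 1415907_at was 1.06 higher in ICN2-positive cells (exact two-sided permutation test, p = 0.1, the smallest possible, for a pair chosen after the values were seen). Both probe sets already separated the groups, in opposite directions, so no other p was possible and the test adds no support.

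Ccnd2 calls depended on how the spread was modelled. With array weights, which gave ICN2-positive replicate 1 a weight of 0.294 and replicate 3 a weight of 4.03, all 7 passed (adjusted p = 0.0266 to 0.0397), as did Ccnd3 1415907_at and 1438805_at. The same setting called 14.5% of all probe sets. With a variance trend on intensity 4 of the 7 passed, against 4.43% of all probe sets, and without ICN2-negative replicate 1 the probe set 1416122_at passed at 0.95 (adjusted p = 0.0385), a fit that called 1.08% of all probe sets. Without 1 of the other 5 arrays the same probe set did not pass (adjusted p = 0.105 to 0.206).

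**Figure D2:**
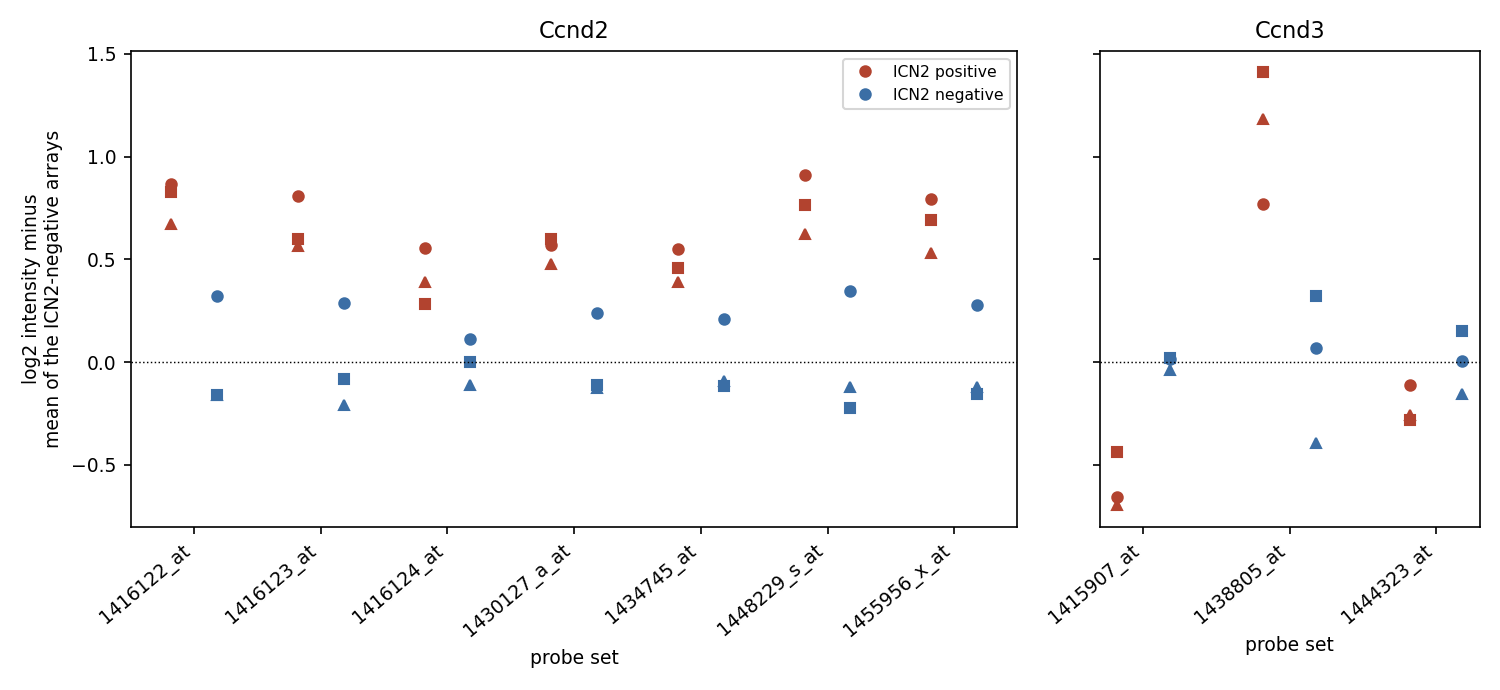
Log2 intensity minus the mean of the ICN2-negative arrays (vertical axis) for the 7 probe sets of Ccnd2 (left panel) and the 3 of Ccnd3 (right panel), with 1 point per array (circle, square and triangle for replicates 1, 2 and 3, some hidden by others). The Ccnd2 probe sets repeat one pattern, with ICN2-negative replicate 1 nearest to the ICN2-positive arrays, while Ccnd3 1415907_at and 1438805_at lie on opposite sides of 0.

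**Figure D3:**
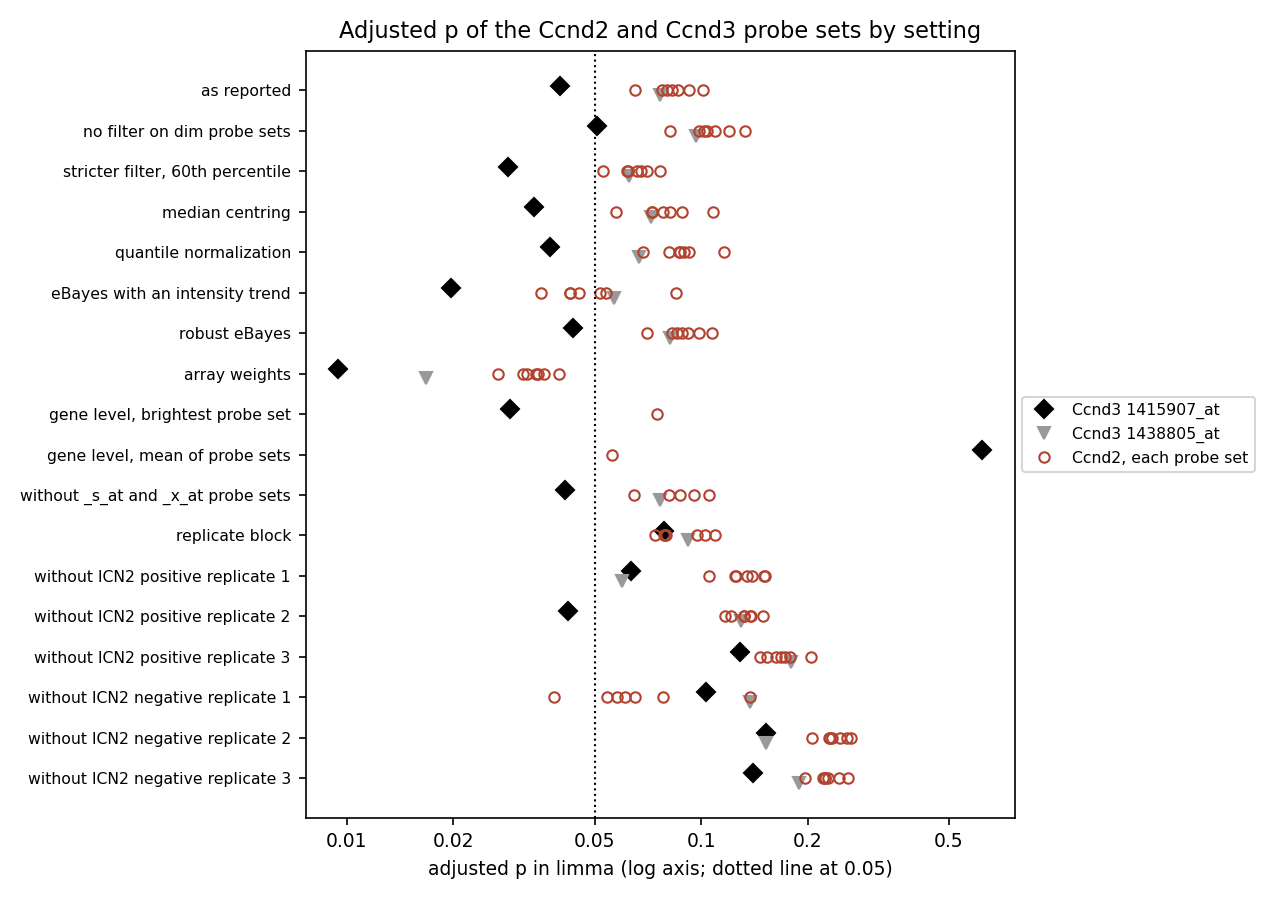
Adjusted p in limma (horizontal log axis, dotted line at 0.05) of Ccnd3 1415907_at, Ccnd3 1438805_at and each Ccnd2 probe set under the reported fit and each alternative (rows). The reported Ccnd3 value of 0.0401 lies near the line, its value for the mean of the Ccnd3 probe sets is 0.621, and with array weights all Ccnd2 values lie at or below 0.0397.

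Markers of other cell types were read on the same arrays, and their part in the Ccnd2 and Ccnd3 differences was not tested. In bulk samples fewer cells of a type and less RNA per cell cannot be told apart. For each list the intensities of its genes were summed on the linear scale, with the brightest probe set for each gene. The monocyte and dendritic list (4 of 4 markers measured, none dim on all arrays) summed to 1755 to 8562 on ICN2-positive arrays, against 16443 to 18891 on ICN2-negative arrays. The neutrophil list (4 of 4) summed to 776 to 1585 in ICN2-positive cells, against 1765 to 2623 in ICN2-negative cells, and the B cell list (4 of 5) to 602 to 1714, against 2199 to 8355. The late erythroid list (2 of 4, with Hba-a1 below the 40th percentile on all arrays) summed to 271 to 936 in ICN2-positive cells, against 2611 to 5475 in ICN2-negative cells. This sum is in effect that of Slc4a1 alone, which differed by -2.67 ± 0.55 without passing (adjusted p = 0.0722 in limma). The mast cell and basophil list (6 of 6) spread over 2387 to 22239 within the ICN2-positive arrays, lowest in replicate 1. On ICN2-negative arrays it spread over 9765 to 13944. Mcpt8 read 9.70 to 13.77 in ICN2-positive and 12.49 to 12.93 in ICN2-negative cells, while Cma1 and Tpsb2 read 5.38 to 6.92 on all arrays. The megakaryocyte list (4 of 4) summed to 912 to 2555 in ICN2-positive cells, against 1463 to 5611 in ICN2-negative cells, with overlap. Its genes did not share a sign, with Pf4 at -2.94 and Gp9 at -0.39, against 0.72 for Itga2b and 0.32 for Gp1bb. The groups also overlapped in the NK cell list (3 of 4), at 597 to 1085 in ICN2-positive and 639 to 830 in ICN2-negative cells, and in the stem cell list (4 of 5), at 295 to 701 in ICN2-positive and 393 to 741 in ICN2-negative cells. The T cell list (5 of 6) summed to 215 to 524 in ICN2-positive cells, against 164 to 253 in ICN2-negative cells, also with overlap. Its Cd3d, Cd3e and Cd3g differed by 1.25, 1.35 and 1.52 without passing, and Cd2 by 0.03. Cd3d and Cd3g exceeded the 40th percentile on 4 of the 6 arrays. Cd28 was not tested and read 4.04 to 4.24 in ICN2-positive cells, against 4.44 to 5.60 in ICN2-negative cells. Of the marker genes, each read by its brightest probe set, only Mmp8 of neutrophils passed the test, and it fell. It was tested through the ICN2-negative arrays alone, since its ICN2-positive values (4.82 to 5.22) lay below the 40th percentile.

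Ccnd1 was the most variable of these genes within each group. Its brightest probe set, 1448698_at, read 9.13, 9.97 and 10.57 in ICN2-positive replicates 1, 2 and 3, against 10.80, 9.78 and 10.24 in ICN2-negative replicates. The groups overlapped over most of their range, and the difference was -0.38 ± 0.43 (95% interval -1.44 to 0.68, adjusted p = 0.624 in limma). Without ICN2-positive replicate 1, the lowest array, it was -0.001. The probe set 1417420_at read 6.79, 7.43 and 7.61 in ICN2-positive cells, against 8.26, 7.55 and 7.46 in ICN2-negative cells (-0.48 ± 0.30), and 1417419_at read 6.57, 7.19 and 7.68, against 7.32, 6.56 and 6.80 (0.26 ± 0.33). The 3 differences did not share a sign and none passed, although the probe sets correlated over the 6 arrays (r = 0.563 to 0.902, as a description). The SD of 1448698_at over all arrays was 0.60 log2 units, the only brightest probe set of these genes above 0.5. Among 23428 tested probe sets of other single genes, those most like it over the 6 arrays were 1700018L02Rik (r = 0.988), Zfp60 (r = 0.985) and Bahd1 (r = 0.984). Arrays that share RNA quality and cell mixture can also share such patterns, which was not tested. The highest of 23428 values of r over 6 arrays can be large by selection alone, so these values describe these 6 arrays only.

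The kinase genes Cdk4 and Cdk6 were bright and close to level, and none of their 6 probe sets passed the test (adjusted p = 0.305 to 0.971 in limma, none with an unadjusted p under 0.05). All 6 differences were above 0. In 3 of the 6 every ICN2-positive array was higher (50%, against 19.7% of all probe sets), with gaps of 0.003 to 0.03. These were Cdk4 1422440_at, Cdk6 1435338_at and Cdk6 1455287_at. Cdk4, the first partner of the D cyclins, read 13.21, 13.12 and 13.14 at 1422441_x_at in ICN2-positive replicates 1, 2 and 3, against 13.13, 13.09 and 13.13 in ICN2-negative replicates. The groups overlapped, and the difference was 0.04 ± 0.07, with a 95% interval of -0.13 to 0.21. The other Cdk4 probe sets differed by 0.01 (1422439_a_at) and 0.10 (1422440_at). Saturation of such bright probe sets was not tested. Cdk6, the second partner, read 12.87, 13.09 and 12.93 at 1435338_at in ICN2-positive cells, against 12.82, 12.86 and 12.84 in ICN2-negative cells. Its groups touched without overlapping, with a difference of 0.12 ± 0.08 (95% interval -0.09 to 0.33). ICN2-positive replicate 2 was the highest array in all 3 Cdk6 probe sets, and the differences were 0.12 to 0.17.

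The 250 bases before the Cdk4 start hold 4 E-boxes, at 172, 118, 98 and 11 bases before it. Of 32817 windows, 7 hold 4 or more. Cdk4 is a known target of Myc proteins, so the sequence is shown beside the level values of this gene. The capitals mark each CACGTG.
Cdk4, chr10:127063285-127063534, plus strand, GRCm38.p6: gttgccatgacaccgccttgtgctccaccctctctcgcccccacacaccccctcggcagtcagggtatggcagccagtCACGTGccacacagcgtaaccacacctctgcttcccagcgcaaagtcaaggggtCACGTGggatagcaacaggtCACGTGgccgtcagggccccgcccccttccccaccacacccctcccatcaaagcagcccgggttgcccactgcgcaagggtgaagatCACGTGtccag
The window also holds 1 RBPJ core, 141 bases before the start and read on the other strand, and no E2F site. A match is a description and not a binding site. The Cdk6 window holds 1 E-box and the Cdkn2d window 1 RBPJ core. The windows of Cdkn1b and Cdkn2c hold none of the motifs. Sequences were found for 6 of the 9 genes.

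None of the 4 tested inhibitor probe sets passed (adjusted p = 0.323 to 0.935 in limma, none with an unadjusted p under 0.05). Cdkn1b, the Cip/Kip inhibitor that holds cells in quiescence, read 10.04, 10.22 and 10.18 at 1434045_at in ICN2-positive replicates 1, 2 and 3, against 10.25, 10.62 and 10.26 in ICN2-negative replicates. Each ICN2-positive array was lower, with a gap of 0.03, and the difference was -0.23 ± 0.13 (95% interval -0.54 to 0.08). Its other probe set, 1419497_at, differed by -0.22 ± 0.22, with overlapping groups. Cdkn2c, an INK4 inhibitor, read 8.14, 7.91 and 7.76 in ICN2-positive cells, against 7.91, 8.0 and 7.95 in ICN2-negative cells. The groups overlapped (-0.02 ± 0.11, 95% interval -0.30 to 0.26). Cdkn2d, the other INK4 inhibitor, read 8.29, 9.03 and 8.65 in ICN2-positive cells, against 8.69, 9.08 and 8.60 in ICN2-negative cells (-0.14 ± 0.22, 95% interval -0.69 to 0.42). The intervals of all 4 tested inhibitor probe sets (-0.77 to 0.32 for Cdkn1b 1419497_at) leave out a change of 1 log2 unit either way. They do not show that the groups were alike. Cdkn1c, the Cip/Kip inhibitor known for high expression in quiescent stem cells, was the member that was not tested. Its probe set read 4.90, 4.76 and 4.39 in ICN2-positive cells, against 4.71, 4.56 and 4.58 in ICN2-negative cells. All 6 values were below the filter's limit of 5.26 to 5.30, so no level or fold was read from it. The tested probe set nearest above the limit was Ccnd3 1444323_at, at 5.55 to 5.98.

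**Figure D4:**
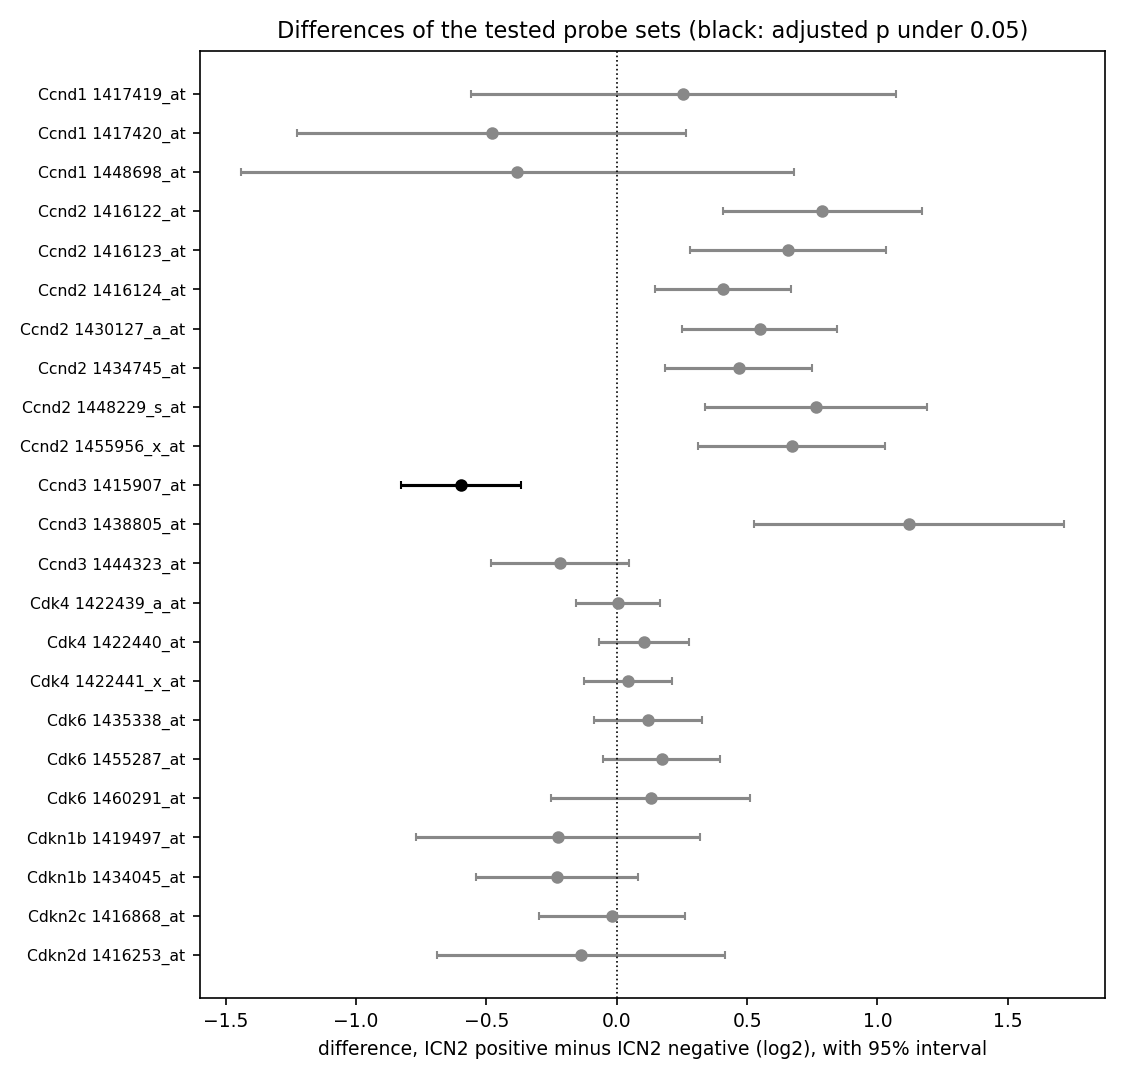
Difference, ICN2 positive minus ICN2 negative in log2 units (horizontal axis), with its 95% interval from limma, for each of the 23 tested probe sets (rows, n = 3 arrays per group). The interval of Ccnd3 1415907_at (black) passes the adjusted test, those of Ccnd2 and Ccnd3 1438805_at lie above 0 without passing it, and those of Ccnd1 are the widest, reaching -1.44 at 1448698_at.

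Other genes of the G1 pathway were read from 7 lists with 68 genes, of which 63 were tested with 133 probe sets. In limma 1 probe set rose and 1 fell, which is 1.5% of the 133, against 2.65% of all probe sets tested. The median difference was 0.03, as over all probe sets tested, and 27 had an unadjusted p under 0.05 (20.3%, against 24.3% of all probe sets). E2f2, an E2F factor that the retinoblastoma protein holds in check, fell. Its probe set 1455790_at read 8.23, 8.86 and 8.96 in ICN2-positive replicates 1, 2 and 3, against 10.18, 10.29 and 10.15 in ICN2-negative replicates. The groups were far apart relative to their spread (-1.52 ± 0.20, 2.88-fold lower, adjusted p = 0.028). The other E2f2 probe set, 1436434_at, differed by -1.42 ± 0.26 with no overlap and missed the threshold (adjusted p = 0.0572). Without ICN2-positive replicate 1 both E2f2 probe sets passed, at -1.30 and -1.16 (adjusted p = 0.00845 and 0.0439), and 1455790_at missed the threshold in the fits without 1 of the 5 remaining arrays (adjusted p = 0.0601 to 0.123). The remaining 23 Rb and E2F probe sets did not pass, and 11 of the 25 had an unadjusted p under 0.05, against 24.3% of all probe sets. Tfdp2, a dimerization partner of E2F factors, was closest at 0.59 ± 0.12 (1437174_at, adjusted p = 0.0635).

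Cdc37, the chaperone partner that loads CDK4 onto Hsp90, rose at 1416820_at, which read 8.34, 8.42 and 8.30 in ICN2-positive cells, against 7.77, 7.51 and 7.66 in ICN2-negative cells (0.71 ± 0.09, adjusted p = 0.0273 in limma). Its brighter probe set, 1416819_at, differed by 0.16 ± 0.09 and did not pass. The Cdc37 call was kept without ICN2-positive replicate 1 (adjusted p = 0.0441) and lost without 1 of the 5 remaining arrays (adjusted p = 0.0535 to 0.115). In the same list Cdk7, the CDK-activating kinase, differed by 0.32 ± 0.10 (1451741_a_at, adjusted p = 0.125). No other probe set in this list of 11 passed.

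None of the 25 probe sets for turnover of D cyclins and Cip/Kip proteins passed in limma, 5 had an unadjusted p under 0.05 (20%, against 24.3% of all probe sets), and their median was 0.13. Skp2, the F-box protein that marks the Cdkn1b protein for destruction, was above 0 in all 6 probe sets, with 0.67 ± 0.19 at 1418969_at (adjusted p = 0.116). Fbxo31, an F-box protein for cyclin D1, differed by 0.42 ± 0.13 at 1428926_at. Apart from this probe set, the 5 with an unadjusted p under 0.05 all read Skp2, as repeated readings of the same gene. None of the 10 probe sets of the cyclin E, cyclin A and CDK2 list passed, and none had an unadjusted p under 0.05. Its Cdc25a, a phosphatase that activates CDK2, differed by 0.35 ± 0.14, and Cdk2 by -0.28 ± 0.13. Of the other CDK inhibitors, Cdkn3 differed by -0.32 ± 0.11 and Cdkn1a by -0.62 ± 0.31, and none of 3 probe sets passed (1 with an unadjusted p under 0.05).

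None of 25 probe sets of upstream regulators passed in limma, with 6 at an unadjusted p under 0.05 (24%, against 24.3% of all probe sets). Mycn, a Myc family factor, read 8.87, 10.51 and 9.99 at 1417155_at in ICN2-positive cells, against 7.74, 6.57 and 4.94 in ICN2-negative cells. The groups did not overlap, and the difference of 3.38 ± 0.79 did not pass (adjusted p = 0.0865). The value of 4.94, from ICN2-negative replicate 3, lay below the filter's limit on that array (5.29). The other Mycn probe sets differed by 0.18 and -0.12. Mxd1, an antagonist of Myc proteins, differed by -0.58 ± 0.16 (1434830_at, adjusted p = 0.117). None of 34 probe sets of proliferation markers passed in limma, 2 had an unadjusted p under 0.05, and their median was -0.004, with a range of -0.15 to 0.40. Cdc20, an activator of the anaphase-promoting complex, differed by 0.39 ± 0.11 (1416664_at, adjusted p = 0.109) and the replication helicase gene Mcm4 by -0.15 ± 0.07.

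**Figure D5:**
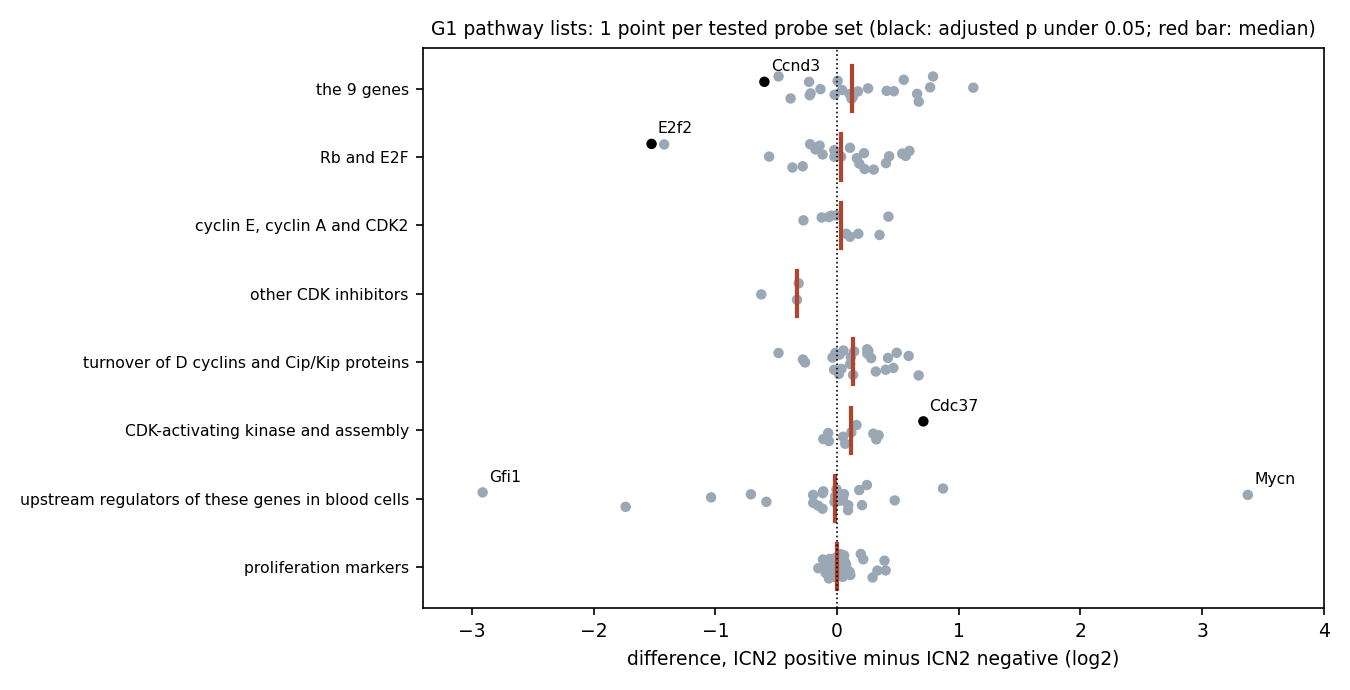
Difference, ICN2 positive minus ICN2 negative in log2 units (horizontal axis), of every tested probe set (points, spread vertically for view) of the 9 genes and of the 7 G1 pathway lists, with list medians as red bars and calls in black. The calls are Ccnd3 (-0.60), E2f2 (-1.52) and Cdc37 (0.71), and the proliferation markers cluster between -0.15 and 0.40.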

How the data were processed

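Values are linear intensities that the authors obtained with RMA, per the submitters' processing notes, which name no version. RMA subtracts background, gives all arrays 1 distribution and summarises the probes of a set, which hides a shift in total RNA. Arrays were hybridised after Nugen Ovation amplification of 5 ng RNA, per the labels. No scanner output was used, so values carry no flag for background or saturation, and the number of arrays limits the precision.

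Of 45101 probe sets, 64 controls were left out. The platform annotation gave 34958 probe sets with 1 gene, 932 with several and 9211 with none, and only those with 1 gene were named. Log2 was taken, and limma 3.58.1 in R 4.3.3 (lmFit, eBayes, no covariate) was fitted over all probe sets above the filter and tested on simulated data. Exact permutation tests cannot go below p = 0.1 with 3 against 3 arrays. Promoters came from a RefSeq table (GRCm38.p6).

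The genes and lists were chosen with earlier results of these data known. Named pathway genes were those called and the 2 genes with the smallest p in each list. Other probe sets of those genes, the E2f2 partner among them, and Gfi1 were added after the values were seen. Alternatives covered the filter, normalization, variance model, array weights, gene level, shared probe sets, replicate number, threshold and each array left out.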

Additional observations from a re-analysis of the deposited data

How the results depend on the processing

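The reported fit called 1 of the 23 probe sets, 728 of all and 2 of the pathway lists. For the 9 genes the count was 0 with no filter on dim probe sets (Ccnd3 1415907_at then at adjusted p = 0.0507), 0 for means of a gene's probe sets, where Ccnd3 differed by 0.10 in place of a fall because its probe sets have opposite signs, and 0 with the replicate block (Ccnd3 at adjusted p = 0.0787). It was 5 with an intensity trend, 9 with array weights and 8 at a threshold of 0.10. With 1 array left out it was 0 to 1, that of all probe sets 95 to 860 and that of the pathway lists 0 to 4. All probe sets called numbered 1216 with the trend, 3970 with array weights, 268 with the replicate block and 2376 at 0.10. Pathway calls numbered 4 with the 60th percentile filter, 4 with the trend, 15 with array weights, 1 at gene level by the brightest probe set, 1 by the mean, 0 with the replicate block and 5 at 0.10. Features tested numbered 45037 with no filter, 18330 with the 60th percentile filter, 24087 without shared probe sets and 12837 at gene level. A threshold of 0.10 can only add calls. Beyond this the cause of these moves was not tested. Whether the replicate numbers pair the arrays was left undecided by the check used, as 3 arrays per group are too few for it. Same-numbered deviations correlated at 0.183, 0.101 and 0.0945. ICN2-positive replicates 1 and 2, but not 3, correlated best with their own number. Fits that leave 2 arrays in a group rest on the spread pooled with the other 3. The probe sets of Cdk4, Cdk6, Ccnd1, Cdkn1b, Cdkn2c and Cdkn2d passed under no alternative run. The signs of single probe sets of Ccnd1, Cdk4, Cdk6, Cdkn2c and Cdkn2d changed in some fits without a call.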
